A study of Homo sapiens with 4 samples.

Results

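The genes described here are 61 protein-coding genes whose RNA was recovered at higher levels in both miR-28BIO pull outs than in both miR-28CT pull outs, and which are not in the list of miR-28-5p targets that the study drew from these libraries. They were chosen from 19398 coding genes by their measured values. FPKM (read counts set to the length of the transcript and the depth of the library) of the RefSeq coding transcripts of a gene, whose records start with NM_, were summed and scaled between libraries. A gene was kept when its mean over the 4 libraries was at least 1, both miR-28CT values were above 0, and the lower miR-28BIO value was at least 2 times the higher miR-28CT value. This quotient, the lower miR-28BIO over the higher miR-28CT value, is called the margin below. Genes in the study's targetome of 191 transcripts and genes with symbols starting with ZNF, RNF, RAB or SLC were left out.

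A miRNA guides an Argonaute protein to mRNAs that pair with it, mostly through the nucleotides near its 5′ end (the seed), and the complex then blocks translation or shortens the life of the mRNA. Sites in the 3′UTR are the best known, although coding sequences can hold sites too. In a miRNA pull out a tagged miRNA is put into cells and recovered on beads, so that RNA bound to it comes along with RNA that sticks to the beads unspecifically. miR-28-5p is encoded in an intron of LPP. Its mature sequence was not analysed here.

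The cells were DU-145, an established human prostate carcinoma cell line. They were transfected with 60 nM of miR-28-5p as a duplex without a tag (miR-28CT) or with the same dose of mixed 3′ biotin-tagged duplexes with a thiouridine at nucleotide 8 or 18 (miR-28BIO), so that cells of both arms received miR-28-5p. After 24 h the cells were exposed to ultraviolet light of 365 nm (2 J/cm2), which crosslinks thiouridine to RNA, and 15 µg of total RNA was kept with streptavidin beads for 4 h before the retained RNA was sequenced in single reads of 50 bases from stranded total RNA libraries. Each arm held 2 libraries, numbered 1 and 2, which the study describes as biological replicates. The p-values measure the spread between these libraries only. Pairs of values below are given for replicate 1 and then replicate 2.

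Reads behind the FPKM were estimated from the deposited coverage at 17.9 and 13.0 M for miR-28CT and 17.3 and 14.7 M for miR-28BIO. Among cell type markers, KRT8, KRT18, KRT19, EPCAM, CDH1 and VIM were above 0 in all 4 libraries, and the sum of these 6 genes, most of it VIM, the mesenchymal marker vimentin, was 329.5 and 486.6 scaled FPKM in miR-28CT and 189.6 and 288.4 in miR-28BIO. KLK3 and KLK2, markers of androgen-dependent prostate cells, were listed at 0 in every library, as were PTPRC and CD3E of blood cells and HBA1 and HBB of red cells. The sum of 3 fibroblast markers was at most 0.211. VIM alone was at 237.2 and 251.9 in miR-28CT and 135.4 and 175.3 in miR-28BIO, while CDH1, the epithelial cadherin, was at 0.857 and 1.38 in miR-28CT and 0.932 and 1.64 in miR-28BIO. The part of these differences in the results below was not tested. In RNA from a whole culture fewer cells of a kind and less RNA per cell cannot be told apart, and without an input library analysed here neither can more of a transcript in the cells and more of it on the beads.

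Of the coding genes, 9186 had a mean of at least 1 and both miR-28CT values above 0, and 196 of them (2.13%) passed the margin. The targetome held 131 of these 196 genes, and 4 others (RAB30, RNF185, SLC44A1 and ZNF670) carried one of the excluded symbols. The remaining 61 genes were 0.722% of the 8446 genes outside the targetome and the excluded symbols. With the arms exchanged, the same rule gave 43 of 9160 genes (0.469%), of which 42 were among 8421 genes outside the targetome and the excluded symbols (0.499%). Over all 9186 genes, 1101 (12%) had both miR-28BIO values above both miR-28CT values by any amount. Since the margin chose the 61 genes, their differences between the arms are a description and were not tested.

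**Figure D1:**
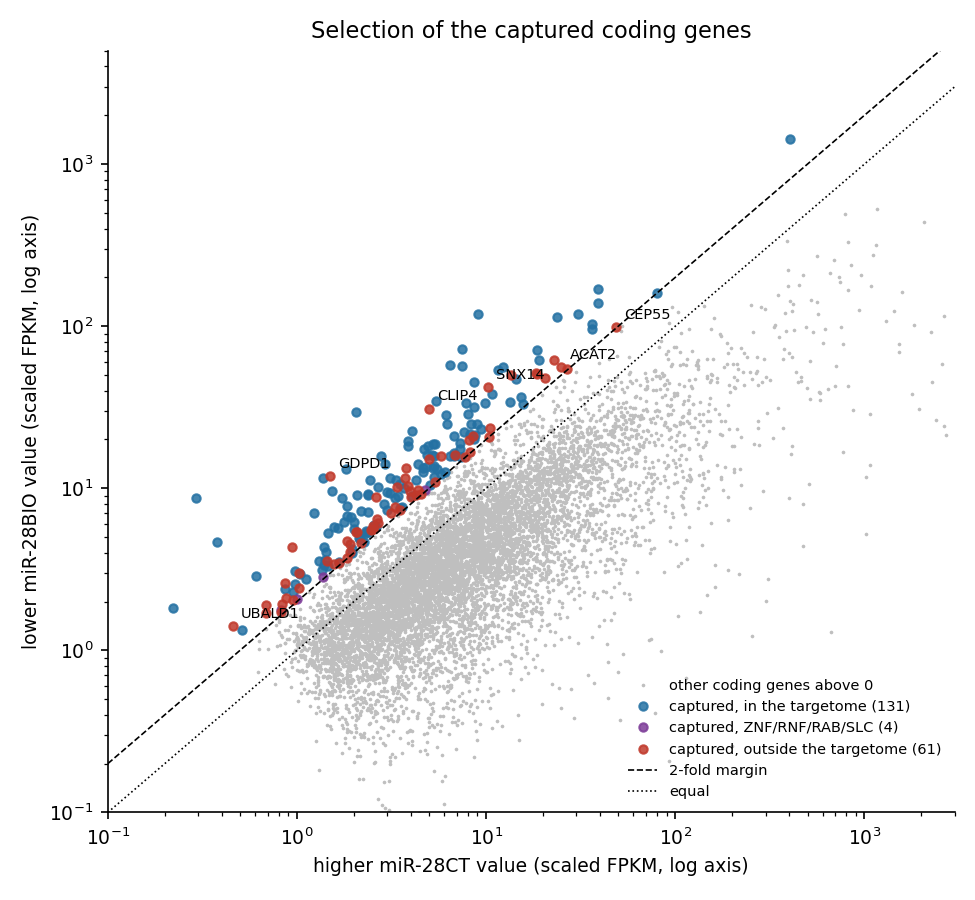
Each point is a coding gene, with its higher miR-28CT value on the x axis and its lower miR-28BIO value on the y axis (scaled FPKM, both axes logarithmic; 1 gene sum per library, genes beyond the axes or at 0 are not drawn). The 61 genes outside the targetome (red) lie above the dashed line of the 2-fold margin together with 131 targetome genes (blue) and 4 genes of the excluded symbols (purple), and most of the red points lie close to the line.

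The margins of the 61 genes were mostly small. Their median was 2.35 and they ranged from 2.00 for ORMDL2 to 7.99 for GDPD1, with 39 genes under 2.5, 10 between 2.5 and 3, and 12 at 3 or more. The 131 captured targetome genes had a median margin of 3.06. On the log2(scaled FPKM + 0.1) scale the difference between the arms had a median of 1.60 for the 61 genes (quartiles 1.38 and 2.05), 2.12 for the captured targetome genes and -0.10 for all 9186 genes. This scale understates the differences of genes with low FPKM. The median gene of the set had a mean of 2.57 scaled FPKM in miR-28CT and 9.86 in miR-28BIO, while the medians over all 9186 genes were 4.93 and 4.73.

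At the threshold, SGPL1, the lyase that degrades sphingosine-1-phosphate, was just outside with a margin of 1.998 (12.1 and 12.7 in miR-28CT, 27.1 and 25.4 in miR-28BIO), followed by VMA12 at 1.997 and ARHGEF3, a guanine nucleotide exchange factor, at 1.99. The nearest genes inside were ORMDL2 at 2.00, MMGT1 at 2.01 and CD99L2 at 2.03. The genes on either side of the threshold were thus nearly alike in their margins.

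**Figure D2:**
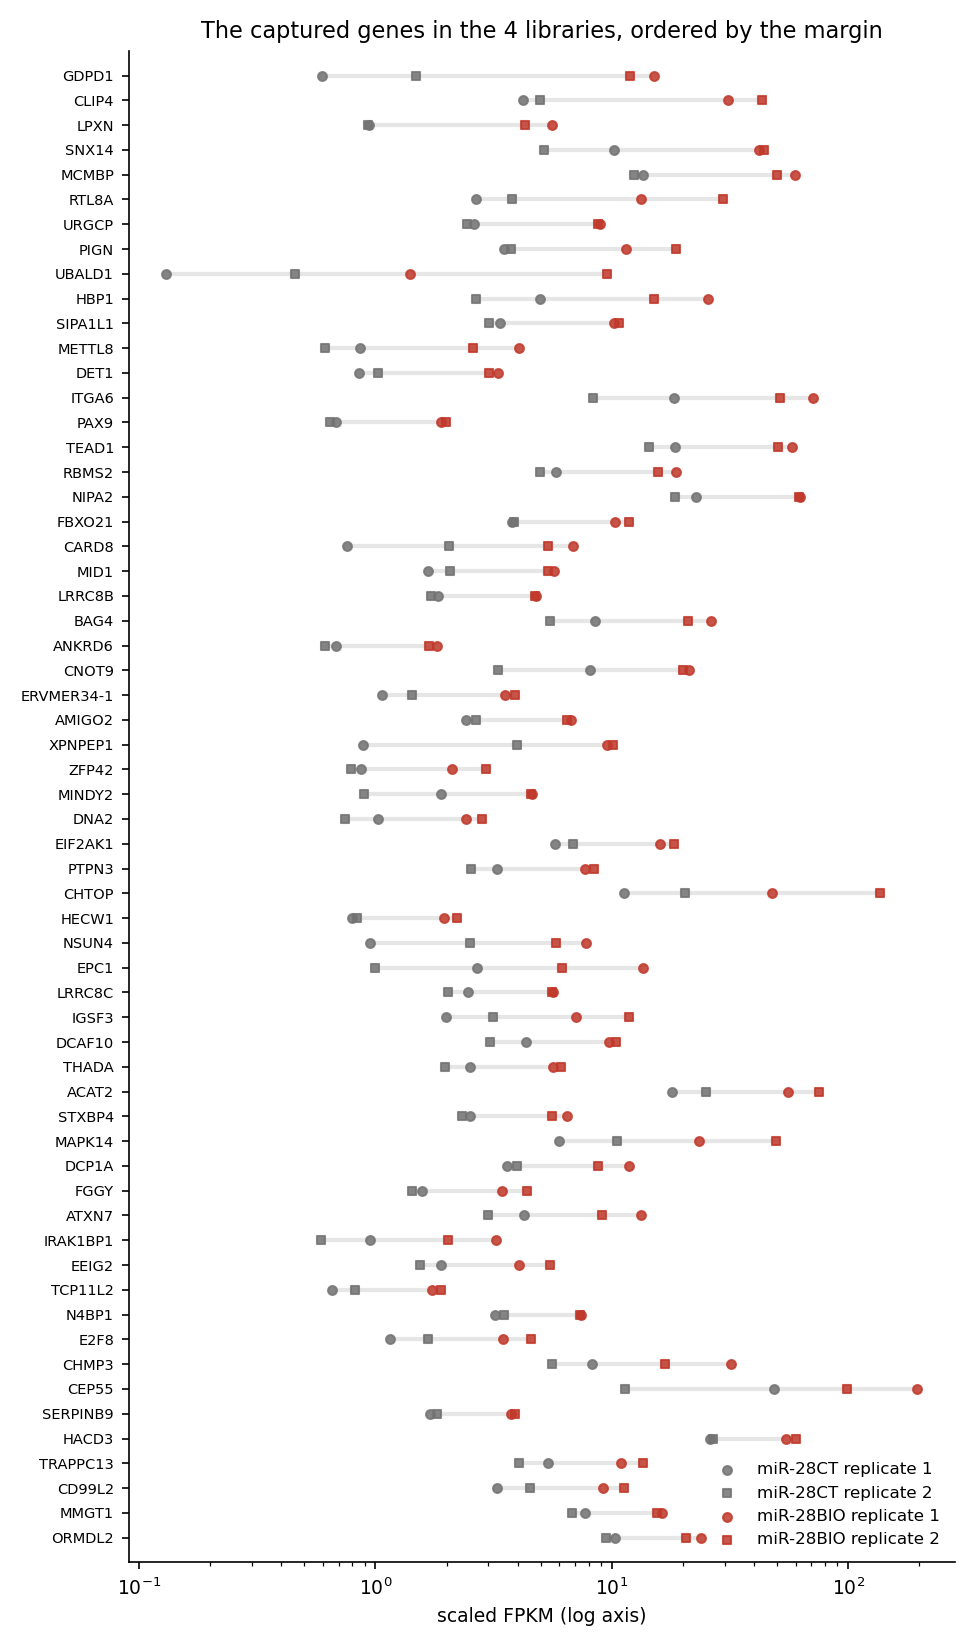
Scaled FPKM (logarithmic x axis) of 60 of the 61 genes in the 4 libraries, with genes ordered from the largest margin at the top to the smallest at the bottom. Grey symbols are miR-28CT and red symbols miR-28BIO, circles are replicate 1 and squares replicate 2; the red symbols of every gene lie to the right of the grey ones, as the rule requires, and UBALD1, CEP55 and CHTOP show wide gaps between replicates.

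The gene with the largest margin was GDPD1, an enzyme that releases lysophosphatidic acid from lysophospholipids (NM_001165993, chr17:59220467-59275969 on hg38). GDPD1 was at 0.597 and 1.49 scaled FPKM in miR-28CT and at 15.1 and 11.9 in miR-28BIO (1.04 ± 0.634 against 13.5 ± 2.27, SD, n = 2 each). Other genes of lipid and glycolipid metabolism were also in the set, although no list for lipid enzymes had been made and this group was put together after the values were seen. PIGN, which adds ethanolamine phosphate to the GPI anchors of surface proteins (chr18:62044225-62187056), was at 3.49 and 3.74 in miR-28CT and at 11.5 and 18.8 in miR-28BIO. ACAT2, the cytosolic thiolase at the entry of cholesterol synthesis (chr6:159761957-159779055), was at 18.1 and 25.02 in miR-28CT and at 55.9 and 75.5 in miR-28BIO. HACD3, a dehydratase of very long fatty acid elongation, was among the 5 most abundant genes of the set, with 26.0 and 26.7 in miR-28CT and 54.5 and 60.2 in miR-28BIO. Its replicates lay close together and its margin was 2.04. ORMDL2, which restrains serine palmitoyltransferase and so sphingolipid synthesis, was at 10.3 and 9.45 in miR-28CT and 24.0 and 20.7 in miR-28BIO.

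Proteins of membrane traffic were represented by SNX14, CHMP3, STXBP4 and TRAPPC13. These were 4 of the 263 genes of the traffic list that passed the filters outside the targetome (1.52%, against 0.722% of all such genes). SNX14, a sorting nexin of the endoplasmic reticulum that acts in lipid handling (NM_153816, chr6:85505497-85593911), had the highest margin of these with 4.13. It was at 10.2 and 5.16 in miR-28CT and at 42.1 and 44.2 in miR-28BIO, so the control replicates differed more than the pull outs with the tagged miRNA. STXBP4, a syntaxin-binding protein, was at 2.51 and 2.32 in miR-28CT and at 6.44 and 5.60 in miR-28BIO. TRAPPC13, a subunit of a tethering complex for vesicles, was at 5.36 and 4.04 in miR-28CT and at 10.9 and 13.5 in miR-28BIO. CHMP3, an ESCRT-III subunit that helps cut membranes, was at 8.22 and 5.60 in miR-28CT and 31.8 and 16.9 in miR-28BIO. Its margin fell from 2.05 to 1.39 when a noncoding (NR_) record of the gene was added, and its exons overlap the read-through gene RNF103-CHMP3 on the same strand, so reads of the locus may be shared.

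The list of RNA processing and decay proteins held 5 of the genes (CNOT9, DCP1A, METTL8, NSUN4 and RBMS2) among 396 that passed the filters outside the targetome (1.26%, against 0.722% of all such genes). With the arms exchanged, the rule gave 4 genes of this list. Both CNOT9, a subunit of the CCR4-NOT deadenylase, and DCP1A, an activator of mRNA decapping, act in the decay steps that follow miRNA binding. CNOT9 (chr2:218568580-218596435) was at 8.10 and 3.31 in miR-28CT and at 21.2 and 20.0 in miR-28BIO. For DCP1A (chr3:53283425-53347627) the values were 3.62 and 3.99 in miR-28CT and 11.9 and 8.78 in miR-28BIO, divided over 4 transcript records. RBMS2, an RNA-binding protein, was at 5.78 and 4.98 in miR-28CT and at 18.6 and 15.7 in miR-28BIO from a single record. METTL8 and NSUN4 methylate mitochondrial RNA. METTL8 was among the less abundant genes, with 0.859 and 0.612 in miR-28CT and 4.05 and 2.59 in miR-28BIO, and NSUN4 was at 0.948 and 2.52 in miR-28CT and 7.79 and 5.83 in miR-28BIO. CHTOP, which takes part in mRNA export, matched no list and stood out by its spread. It was at 11.2 and 20.4 in miR-28CT and at 47.8 and 137 in miR-28BIO, so its miR-28BIO replicates differed by more than its margin of 2.34. Of the list of 16 genes of miRNA biogenesis and silencing that passed the filters outside the targetome, none was in the set. A list of 16 genes is too short to show a difference from the 0.722% of all such genes.

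Transcription factors other than ZNF genes contributed TEAD1, PAX9 and E2F8 (3 of 206, 1.46%) and the zinc finger protein ZFP42 (1 of 81, 1.23%). TEAD1, the DNA-binding partner of YAP in the Hippo pathway (NM_021961, chr11:12674422-12944737), was the most abundant of them with 18.5 and 14.3 in miR-28CT and 57.8 and 50.4 in miR-28BIO. PAX9, a developmental paired-box factor, was low, at 0.684 and 0.642 in miR-28CT and at 1.89 and 1.98 in miR-28BIO. The replicates of PAX9 were nearly equal in both arms, although the Cufflinks intervals of its record were not apart between the arms. E2F8, an atypical E2F repressor of cell cycle genes, was at 1.15 and 1.68 in miR-28CT and 3.47 and 4.57 in miR-28BIO. ZFP42, known as a marker of pluripotent stem cells, was at 0.873 and 0.790 in miR-28CT and 2.103 and 2.94 in miR-28BIO. HBP1, an HMG-box repressor that slows the cell cycle, matched no list and was at 4.96 and 2.67 in miR-28CT and 25.5 and 15.1 in miR-28BIO (3.81 ± 1.62 against 20.3 ± 7.36, SD, n = 2 each). The list of chromatin regulators had 0 members among 218 genes (0%, against 0.722% of all such genes). EPC1 and ATXN7, subunits of histone acetyltransferase complexes that the list did not contain, were in the set. ATXN7 was at 4.24 and 2.98 in miR-28CT and 13.3 and 9.13 in miR-28BIO, while EPC1 was at 2.69 and 0.994 in miR-28CT and 13.6 and 6.14 in miR-28BIO and lost its margin when its NR_ records were added (0.730).

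Kinases and phosphatases of the list contributed MAPK14 and PTPN3 (2 of 366, 0.546%). MAPK14, the stress-activated kinase p38α (chr6:36027677-36111236), was at 5.99 and 10.5 in miR-28CT and at 23.4 and 49.3 in miR-28BIO. PTPN3, a tyrosine phosphatase, was at 3.28 and 2.54 in miR-28CT and at 7.70 and 8.40 in miR-28BIO. EIF2AK1, the heme-regulated kinase that phosphorylates the initiation factor eIF2α, matched no list and was at 5.73 and 6.84 in miR-28CT and 16.1 and 18.3 in miR-28BIO. The replicates of MAPK14 lay farther apart in both arms than those of PTPN3 and EIF2AK1. SIPA1L1, a GTPase-activating protein for Rap, was at 3.37 and 3.02 in miR-28CT and 10.2 and 10.7 in miR-28BIO. Of the 225 genes of the list for small GTPases and G protein signalling, none was in the set (0%, against 0.722% of all such genes). SIPA1L1 was not covered by that list.

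The ubiquitin list contributed FBXO21 and DCAF10, substrate receptors of cullin ubiquitin ligases (2 of 282, 0.709%), and 4 further genes of the set belong to the same system but matched no list. FBXO21 was at 3.77 and 3.87 in miR-28CT and at 10.3 and 11.8 in miR-28BIO. DCAF10 was at 4.35 and 3.07 in miR-28CT and at 9.75 and 10.5 in miR-28BIO. Of the 4 genes added after the values were seen, MID1 is a ligase bound to microtubules, HECW1 a HECT-type ligase, MINDY2 a deubiquitinase and DET1 an adaptor of a cullin ligase. MID1 was at 1.68 and 2.07 in miR-28CT and 5.69 and 5.38 in miR-28BIO. HECW1 was at 0.793 and 0.837 in miR-28CT and 1.94 and 2.22 in miR-28BIO, and MINDY2 at 1.90 and 0.898 in miR-28CT and 4.60 and 4.54 in miR-28BIO. DET1 was at 0.853 and 1.03 in miR-28CT and 3.29 and 3.01 in miR-28BIO. With its NR_ record added, the margin of DET1 fell from 2.94 to 1.12. N4BP1, which binds the ligase NEDD4 and cleaves RNA, was the only member on a list of miR-28-5p targets named in earlier literature (1 of 9 genes, 11.1%, against 0.722% of all such genes). It was at 3.21 and 3.50 in miR-28CT and 7.44 and 7.31 in miR-28BIO (3.35 ± 0.210 against 7.38 ± 0.0888, SD, n = 2 each). In the same list, 1 gene outside the targetome was lower by the rule with the arms exchanged.

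Several genes of cell adhesion and cellular membranes were in the set, a group put together after the values were seen except for the LRRC8 genes. ITGA6, the α6 chain of laminin-binding integrins (NM_001079818, chr2:172427586-172506453), was at 18.3 and 8.32 in miR-28CT and at 71.2 and 51.5 in miR-28BIO. LPXN, a paxillin-like adaptor of focal adhesions (chr11:58526871-58575917), had a margin of 4.58, exceeded by GDPD1 and CLIP4 alone in the set, and was at 0.941 and 0.931 in miR-28CT and at 5.60 and 4.32 in miR-28BIO. The ITGA6 controls differed by more than 2-fold, and the Cufflinks intervals of its highest record were not apart between the arms. AMIGO2, a leucine-rich adhesion protein, was at 2.42 and 2.66 in miR-28CT and 6.73 and 6.44 in miR-28BIO, IGSF3, of the immunoglobulin superfamily, at 2.00 and 3.14 and at 7.07 and 11.8, and CD99L2, a relative of the adhesion molecule CD99, at 3.26 and 4.53 and at 9.17 and 11.3. LRRC8B and LRRC8C, subunits of the volume-regulated anion channel, are neighbours on chromosome 1 (89524838 to 89597861 and 89633085 to 89719535) and were both in the set, as 2 of 203 genes of the list of TMEM, TSPAN, claudin and leucine-rich repeat proteins (0.985%). LRRC8B was at 1.84 and 1.73 in miR-28CT and 4.79 and 4.73 in miR-28BIO, and LRRC8C at 2.47 and 2.03 in miR-28CT and 5.62 and 5.56 in miR-28BIO. The levels of these neighbours were similar in every library. NIPA2, a magnesium transporter (chr15:22838641-22868384), was at 22.8 and 18.6 in miR-28CT and at 62.3 and 62.0 in miR-28BIO. MMGT1, a subunit of the membrane protein insertase of the endoplasmic reticulum, was at 7.74 and 6.79 in miR-28CT and 16.3 and 15.6 in miR-28BIO. The list of cadherins and protocadherins had 0 members among 12 genes, too few to show a difference from the 0.722% of all such genes.

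DNA replication and cell division were represented by CEP55 and MCMBP (2 of 352 genes of the list, 0.568%). CEP55, which recruits the machinery that separates daughter cells (NM_001127182, chr10:93496612-93529092), had the highest mean of the set and was at 48.3 and 11.4 in miR-28CT and at 196 and 98.6 in miR-28BIO. It was the gene with the widest gap between the control replicates in absolute terms, and the higher control put its margin at 2.04 although the means differed 4.93-fold. MCMBP, a binding partner of the MCM helicase (chr10:119829404-119873628), was at 13.6 and 12.4 in miR-28CT and at 59.5 and 50.2 in miR-28BIO (13.0 ± 0.841 against 54.9 ± 6.62, SD, n = 2 each). DNA2, a nuclease and helicase of replication that was outside the list's symbols, was at 1.03 and 0.742 in miR-28CT and at 2.42 and 2.81 in miR-28BIO. Adding its NR_ record turned this difference, with 5.05 and 3.23 in miR-28CT and 4.13 and 3.27 in miR-28BIO. URGCP, named for its effect on cell proliferation, was at 2.62 and 2.43 in miR-28CT and 8.95 and 8.78 in miR-28BIO, and shares exons on the same strand with the read-through gene URGCP-MRPS24.

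Genes of cell death and inflammation were BAG4, CARD8, SERPINB9 and IRAK1BP1, again a group named after the values were seen. BAG4, a co-chaperone of HSP70 that silences death receptors, was at 8.49 and 5.51 in miR-28CT and at 26.3 and 21.0 in miR-28BIO. CARD8, a sensor that can form an inflammasome, was at 0.755 and 2.05 in miR-28CT and 6.89 and 5.36 in miR-28BIO, and 65.3% of its summed FPKM belonged to a record of 626 bases. A short record weighs more in an FPKM sum than its reads would. SERPINB9, the inhibitor of granzyme B, had the smallest difference of the set (1.07 on the log2 scale) and was at 1.71 and 1.83 in miR-28CT and 3.73 and 3.92 in miR-28BIO. IRAK1BP1, which binds a kinase of interleukin-1 signalling, was at 0.948 and 0.591 in miR-28CT and 3.25 and 2.04 in miR-28BIO.

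Of the other genes, CLIP4, a protein with the microtubule-binding CAP-Gly domain (NM_024692, chr2:29115426-29183813), had the second largest margin (6.20), with 4.21 and 4.98 in miR-28CT and 30.9 and 43.3 in miR-28BIO (4.60 ± 0.543 against 37.1 ± 8.78, SD, n = 2 each). With its NR_ record added, the margin of CLIP4 was 3.85. The CLIP4 record with the highest mean was at 0 in miR-28BIO replicate 1 and at 43.3 in replicate 2. RTL8A and ERVMER34-1 both derive from retroelements. RTL8A was at 2.68 and 3.77 in miR-28CT and at 13.3 and 29.6 in miR-28BIO, and ERVMER34-1, an endogenous retroviral envelope gene, at 1.07 and 1.43 and at 3.53 and 3.91. UBALD1 had the widest spread between miR-28BIO replicates in fold, with 0.130 and 0.457 in miR-28CT and 1.41 and 9.56 in miR-28BIO. It rested on about 4 and 7 reads in the control libraries and was the only gene of the set with fewer than 10 reads in any library. XPNPEP1, a cytosolic aminopeptidase, was at 0.890 and 3.96 in miR-28CT and 9.58 and 10.2 in miR-28BIO. THADA, a gene with a role in thermogenesis, was at 2.52 and 1.96 in miR-28CT and 5.64 and 6.09 in miR-28BIO, and its margin fell from 2.23 to 1.13 with its NR_ record. ANKRD6, an ankyrin repeat protein of Wnt signalling, was the member of the list of placeholder and structure-based symbols (1 of 298, 0.336%). It was at 0.684 and 0.611 in miR-28CT and 1.83 and 1.69 in miR-28BIO. FGGY, a carbohydrate kinase, was at 1.57 and 1.43 in miR-28CT and 3.43 and 4.38 in miR-28BIO. EEIG2 was at 1.90 and 1.55 in miR-28CT and 4.05 and 5.46 in miR-28BIO. TCP11L2 was at 0.656 and 0.820 in miR-28CT and 1.73 and 1.90 in miR-28BIO.

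PIGN was the only member among 112 genes of the list of glycosyltransferases and GPI anchor enzymes (0.893%), and ACAT2 the only one among 298 of the list of mitochondrial proteins (0.336%), which its symbol matched although the enzyme is cytosolic. Of the 77 cytosolic ribosomal protein genes that passed the filters, none was in the set, 4 were lower in miR-28BIO by the mirrored rule, and their median log2 difference was -1.15. In all, 25 of the 61 genes matched at least 1 of the 17 lists and 36 matched none. No list was tested, and the shares of 0.336 to 1.52% for the lists with more than 9 genes that held a member lie around the 0.722% of all genes outside the targetome. The lists without a member held 12 to 225 genes. By the mirrored rule the lists had 0 to 6 lower genes outside the targetome, with 6 in the mitochondrial list.

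Replicates of the set agreed to different degrees. In 22 genes (36.1%, against 9.73% of all 9186 genes) the replicates of both arms were within 1.25-fold of each other, among them URGCP, PAX9, LRRC8B and N4BP1. The miR-28CT replicates differed by over 2-fold in 10 genes (16.4%, against 44.8% of all genes) and the miR-28BIO replicates in 5 (8.2%, against 41.4%). A margin between the extreme values favours genes with close replicates, so these shares are a description only. Replicate 2 was the higher one in both arms for 18 genes, the lower one in both for 24, and on different sides for 19. It was thus on the same side in both arms for 68.9% of the set and for 87% of all genes. Between libraries of the same number the median log2 difference of the set was 1.62 for replicate 1 and 1.64 for replicate 2.

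**Figure D3:**
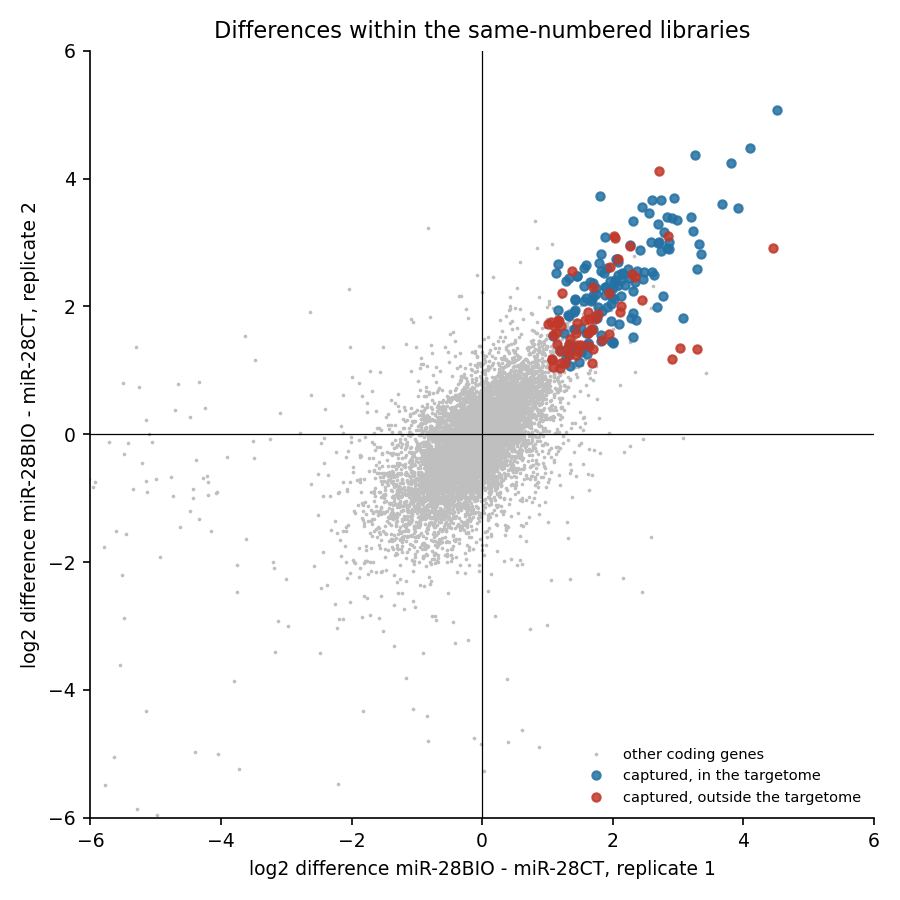
Difference between miR-28BIO and miR-28CT on the log2(scaled FPKM + 0.1) scale within replicate 1 (x axis) and within replicate 2 (y axis), 1 point per coding gene; 24 genes lie outside the axes, which end at 6. The 61 genes outside the targetome (red) and the captured targetome genes (blue) lie above 1 on both axes, and the medians of the red genes were 1.62 and 1.64.

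Over all 9354 coding genes with a mean of at least 1, limma with Benjamini-Hochberg adjustment called 0 genes (0%) in either direction at a threshold of 0.05, with 0.423 as the lowest adjusted p. Without adjustment, 223 genes (2.38%) were higher and 68 lower in miR-28BIO at 0.05, and 53 of the 61 genes were among the higher ones. When the number of the library was added as a replicate block, the limma count rose from 0 to 334 higher genes (3.57%), including 46 of the 61. With the block 352 genes (3.76%) were called lower. Without adjustment the block gave 1083 higher and 1747 lower genes. These counts describe the same contrast that chose the genes. Exact permutation of the 4 libraries cannot reach 0.05 for any 1 gene.

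Reads assigned to the 61 genes, as implied by the coverage, came to 26191 and 12590 in miR-28CT and to 82755 and 70589 in miR-28BIO. This was 0.515 and 0.365% of the reads of coding genes in the controls and 1.64 and 1.59% in the pull outs with the tagged miRNA. The median gene of the set had 261 and 138 reads in miR-28CT and 671 and 579 in miR-28BIO. CEP55 alone had about 2297, 324, 9003 and 4116 reads in the order of the libraries, and its lower control value thus rested on about 324 reads.

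How Cufflinks divided the reads among the transcripts of a gene differed between libraries. Of the 61 genes, 17 had a single NM_ record above 0 and 44 had several. In 32 of these 44 the record with the highest FPKM was not the same in all 4 libraries, and in 41 some record was at 0 in 1 library and above 0 in another. NIPA2 had 5 records, of which NM_001008894 was at 12.4 and 0 in miR-28CT and 44.2 and 0 in miR-28BIO, while NM_001008892 was at 0 and 15.9 and at 0 and 30.3. The gene sums of NIPA2 were nevertheless close between replicates. URGCP was assigned wholly to NM_001077664 in the libraries of replicate 1 and wholly to NM_017920 in those of replicate 2. EIF2AK1, whose records differ in length by 3 bases (4462 and 4465), was assigned to the first in miR-28BIO replicate 1 and to the second in replicate 2. When the record with the highest mean was used in place of the sum, 28 of the 61 genes still met the rule, 17 of them with a single record, and 33 did not. In 27 of the 33 the margin was under 2, 4 (RTL8A, CARD8, MINDY2 and E2F8) had a margin of 2 or more but 1 control listed at 0, and 2 (LPXN and TRAPPC13) had both controls listed at 0. The log2 difference of that record was below 0 for genes that included CEP55 (-1.89), MID1 (-1.05), XPNPEP1 (-1.03), FGGY (-0.78) and CLIP4 (-0.52). The Cufflinks 95% intervals of that record were apart between the arms in 41 of the 61 genes.

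**Figure D4:**
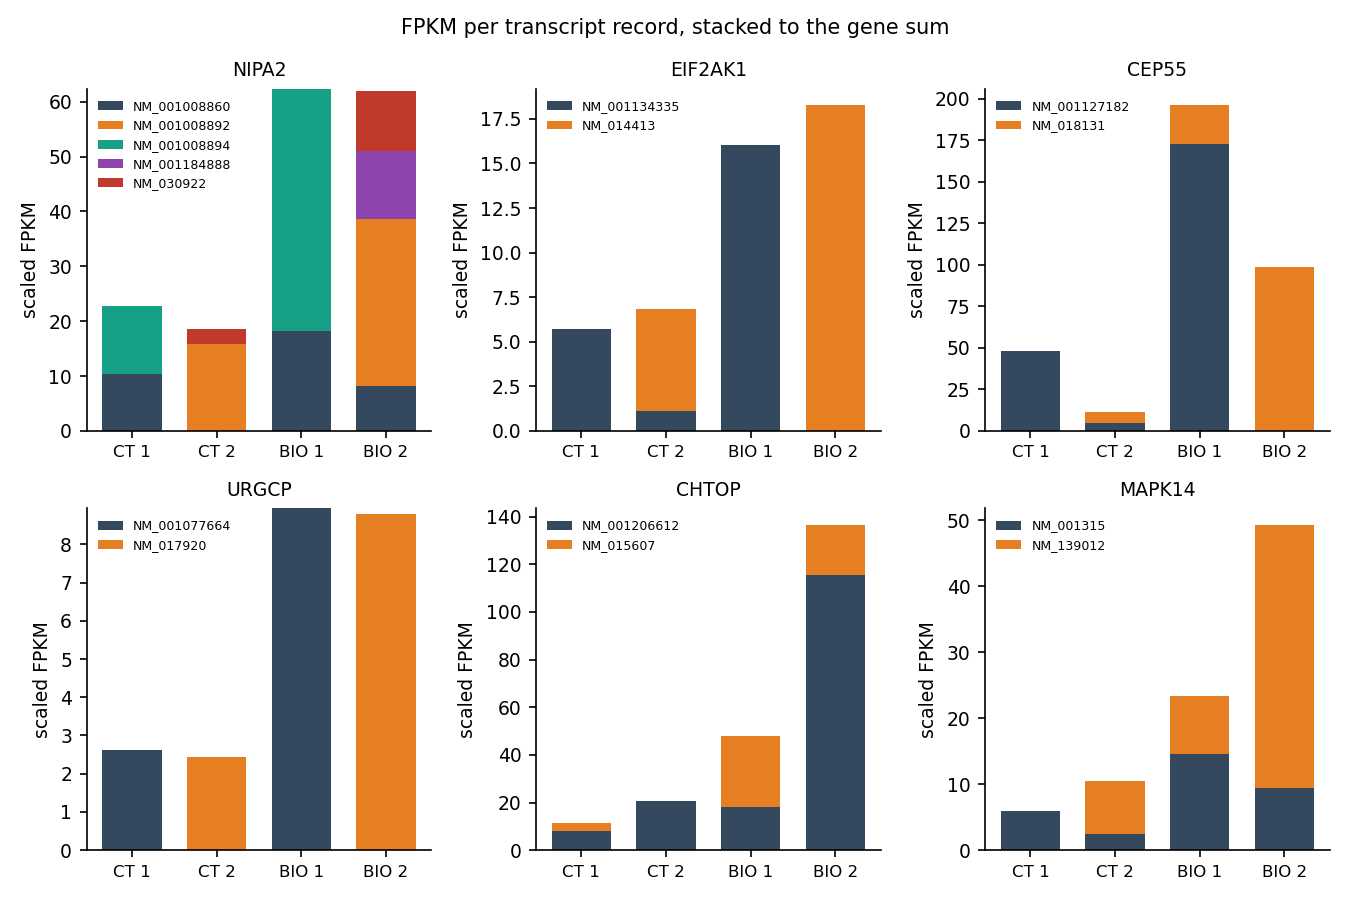
Scaled FPKM of each NM_ transcript record (colours), stacked to the gene sum, in both miR-28CT (CT) and both miR-28BIO (BIO) libraries for 6 genes of the set. The bars of both miR-28BIO libraries are higher than those of both controls in every panel, while the record that fills the bar changes between libraries, completely so for URGCP.

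Noncoding records of the same genes were not part of the rule. An NR_ record was above 0 in 11 of the 61 genes. Adding it left the margin at 2 or more in 6 of them, including CLIP4 (3.85), and took it below 2 in CHMP3, DET1, DNA2, EPC1 and THADA. For DET1, NR_026645 was at 1.62 and 1.90 in miR-28CT and 0 and 3.39 in miR-28BIO. For EPC1, NR_104160 was at 5.73 in miR-28CT replicate 1 and at 0 in the other libraries, and for DNA2, NR_102264 was at 4.02 and 2.49 in miR-28CT and 1.72 and 0.453 in miR-28BIO. Whether those reads came from coding or noncoding transcripts was not tested.

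Transcript structure was not used by the rule, and all 61 genes could be matched by symbol to a coding transcript of GENCODE 44. Only 2 of these transcripts equalled the measured record in span and length. For the other genes the canonical transcript was used, so the 3′UTR lengths are those of the annotation. Their 3′UTRs had a median length of 2391 bases, compared with 2554 in the captured targetome genes, 1354 in all 9109 genes with a 3′UTR and 420 in the 43 genes that were lower by the mirrored rule. In the longest tertile of 3′UTRs, over 2200 bases, lay 32 of the 61 genes (52.5%) and 77 of the 131 captured targetome genes (58.8%), against 33.3% of all genes. In these GENCODE transcripts the longest 3′UTRs belonged to STXBP4 (13721 bases), METTL8 (8426) and TEAD1 (7515). The shortest belonged to THADA (97), FGGY (146) and ACAT2 (283). They can differ from those of the measured records, since the whole record was 6046 bases for STXBP4 and 8134 for METTL8. Another GENCODE transcript of THADA had a 3′UTR of 4178 bases. Among genes outside the targetome, the share in the set was 0.418% in the shortest tertile of 3′UTRs, 0.613% in the middle one and 1.18% in the longest.

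Longer 3′UTRs came with longer transcripts. The highest record of a gene had a median length of 4092 bases in the set, 2976 in all genes and 1189 in the genes that were lower, and the share of genes in the set was 0.312, 0.774 and 1.12% from the shortest to the longest tertile of record length. Which of the 3′UTR and the whole transcript went with the recovery was not tested. The GC content of the 3′UTRs had a median of 38.2% in the set and 41.5% in all genes, and that of coding sequences 48.2 and 51.2%.

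**Figure D5:**
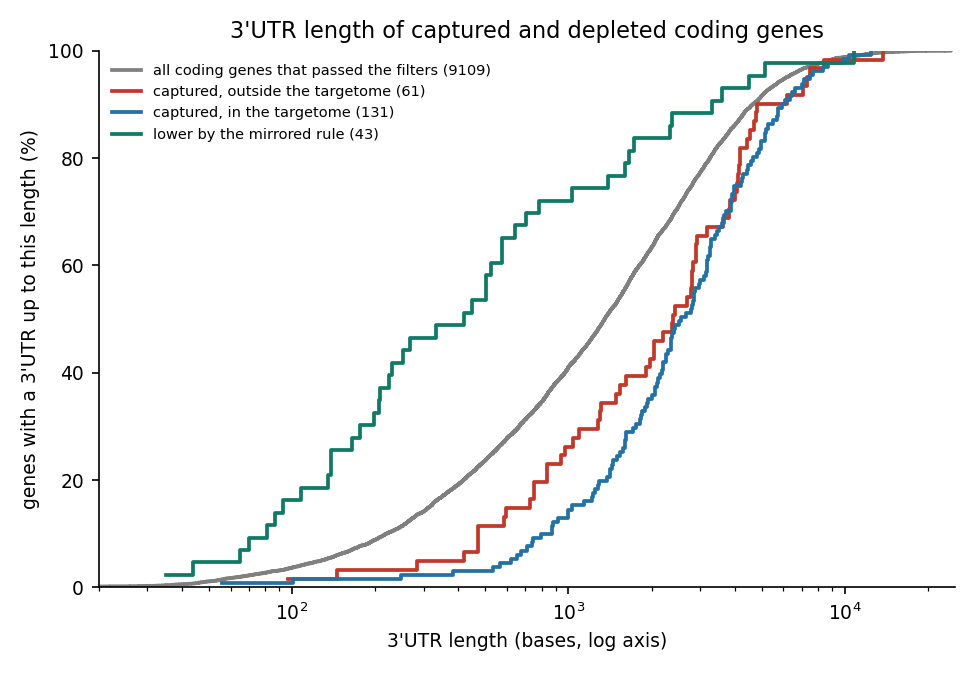
Share of genes (y axis, %) with a 3′UTR up to a given length (x axis, bases, logarithmic) for all coding genes that passed the filters, the 61 genes outside the targetome, the 131 captured targetome genes and the 43 genes that were lower by the mirrored rule. The curves of both captured sets lie to the right of all genes (medians of 2391 and 2554 against 1354 bases) and the curve of the lower genes to the left (420 bases). Lengths are those of GENCODE transcripts, mostly the canonical ones.

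At the genomic level the set was spread over 19 chromosomes, with at most 8 genes on any one (chromosome 1). A small RNA gene lay within 5 of the genes on the same strand (8.20%, against 9.43% of all genes), for example SNORD38C in DCP1A and MIR3943 in HECW1. Exons of another gene on the same strand overlapped 6 of the 61 genes (9.84%, against 6.70% of all genes). These were CHMP3, DET1, LRRC8B, MID1, TRAPPC13 and URGCP. Exons of another gene on the opposite strand overlapped 21 of the 61 genes (34.4%, against 23.4% of all genes). The libraries were stranded, but whether the authors' quantification used the strand is not given in the sources used here, and reads of overlapping genes may then be exchanged. In 10 genes a partner on the opposite strand was a coding gene, and 0 of the 10 partners had a margin of 1 or more. Over all 9186 genes, 12% had both miR-28BIO values above both miR-28CT values, so 10 partners are too few to show a difference. PCED1B opposite AMIGO2 was at 0.677 in miR-28CT replicate 1 and at 0 in the other libraries. TCP1, a chaperonin subunit opposite ACAT2, was at 35.5 and 34.2 in miR-28CT and at 21.8 and 23.4 in miR-28BIO. CYFIP1 opposite NIPA2 was at 6.71 and 15.0 in miR-28CT and 5.71 and 12.5 in miR-28BIO, and COG5 opposite HBP1 at 8.33 and 4.69 and at 6.53 and 4.80. AIMP2 opposite EIF2AK1 was at 14.9 and 25.02 in miR-28CT and 19.2 and 56.0 in miR-28BIO, so that it was higher in miR-28BIO between libraries of the same number but not across them. Whether reads were exchanged between the strands was not tested, and these values do not cover genes overlapped only by noncoding genes.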

How the data were processed

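The authors checked reads with FastQC 0.10.1, aligned them to hg38 with TopHat2 2.0.9 and estimated transcript abundance with Cufflinks 2.1.1, per the labels and the study's methods. The deposited FPKM, with 95% interval bounds and a status, cover 53209 RefSeq transcripts per library; the deposited coverage (a signal) was used to estimate reads. FPKM hold no counts, so no count test was used, and the counting error is not given.

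NM_ records with status OK in all 4 libraries (41669) were named through the RefSeq table of GRCh38 (98.0% named), summed per gene and scaled by median-of-ratios over the 11498 genes above 0 in all 4 (factors 1.06, 0.842, 1.05 and 1.08). Genes in the study's targetome were left out by symbol or accession. Log2 differences used a pseudocount of 0.1. limma (lmFit, eBayes with a trend, no block) was run on 9354 genes with Benjamini-Hochberg adjustment. Libraries were grouped by their titles.

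The genes, the 17 symbol lists and the tests were chosen with earlier results of these data known. Named were the 20 genes with the largest margin, the 5 most abundant, up to 3 per list and 3 on each side of the threshold; other genes were added after their values were seen. Of the set, 1 gene is not reported here by name, although counts over the 61 include it, and some markers are likewise left out. 3′UTRs came from GENCODE 44. A transcript equal in span and length to the gene's highest record was used where there was one (423 genes), otherwise the canonical transcript (8690).

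limma was tested on simulated data of 9354 genes with 200 changed by 2 on the log2 scale. It called 0 at the spread of the real libraries (187 had the right direction) and 199, with 5 unchanged genes, at 0.05 of that spread. With the block it called 0 and 196, with 0 unchanged genes. The simulated libraries did not share deviations by number. Alternatives comprised other margins, filters, scalings, pseudocounts and transcript sums, the replicate block and leaving out each library. Software was limma 3.58.1 in R 4.3.3, and numpy 2.4.6, pandas 2.3.3 and matplotlib 3.10.9 in Python 3.11.15.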

Additional observations from a re-analysis of the deposited data

Results flagged for a closer look

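These signals lay outside the comparison because the genes were listed at 0 in at least 1 miR-28CT library, or because the record was noncoding. Among coding genes outside the targetome, 9 such genes would otherwise have passed the margin, and 5 of them (PSMA3, NKIRAS2, TTC7A, PCDHA9 and PINK1) were listed at 0 in both controls, so no fold is given. Their lower miR-28BIO values were 5.11 scaled FPKM for PSMA3, a proteasome subunit, 3.27 for NKIRAS2, an inhibitor of NF-κB signalling, 2.31 for TTC7A, 2.18 for PCDHA9, a protocadherin, and 2.04 for PINK1, a kinase of mitochondrial quality control. PSMA3 is a gene that every cell uses, and with its NR_ records added the lower miR-28BIO value was 0.862 of the higher miR-28CT value. ASB3 was at 0 and 4.97 in miR-28CT, with a lower miR-28BIO value of 15.7. BTD, which recycles biotin, was at 1.31 and 0 in miR-28CT, with a lower miR-28BIO value of 5.22. UBE3A, a ubiquitin ligase, was at 0 and 1.42, with a lower miR-28BIO value of 3.38. XPA, a protein of nucleotide excision repair, was at 0 and 0.256, with a lower miR-28BIO value of 0.578, and the quotient with NR_ records was 0.545. The noncoding FGGY record NR_103473 was at 0 and 0.141 in miR-28CT and its lower miR-28BIO value was 0.395.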

How the results depend on the processing

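With a replicate block, limma called 334 genes higher (46 of the 61) and 352 lower, in place of 0 and 0. The labels do not say that a number marks a shared batch, and there are only 2 numbers; libraries of the same number correlated more across arms (r = 0.852 and 0.846 across genes) than replicates of an arm (0.639 and 0.647). The limma counts were otherwise 0, except 3 lower genes without miR-28BIO replicate 1 and 3 without miR-28BIO replicate 2 (range 0 to 3). The 61 genes became 842 at a margin of 1, 200 at 1.5, 12 at 3, 105 without a filter on the mean, 174 with 2-fold differences required only within same-numbered libraries, 459 where Cufflinks intervals of the highest record had to be apart (41 of the 61 among them), and 184 (without miR-28BIO replicate 2) to 299 (without miR-28CT replicate 1) with 1 library left out; without miR-28CT replicate 2 and without miR-28BIO replicate 1 there were 206 and 191. Other settings gave 51 to 82 genes, but the 51 obtained with the highest record in place of the sum shared only 28 with the 61. The median log2 difference was 1.30 with a pseudocount of 1. Single genes with a negative difference included CEP55 (-1.89), CLIP4 (-0.52), FGGY (-0.78), MID1 (-1.05) and XPNPEP1 (-1.03) with the highest record, and DNA2 (-0.13) with NR_ records added; the cause was not tested. The sum of NM_ and NR_ records for the median difference and the minimum of 10 reads were chosen after seeing the data. The planned comparison of 3′UTR matches to miR-28-5p nucleotides 2 to 8 was not run. With 2 libraries per arm, low genes such as UBALD1 rest on few reads.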
